A study of Mus musculus with 18 samples.

Results

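The nuclear genes of respiratory complexes II to V encode the protein subunits of succinate dehydrogenase (complex II, Sdh), the cytochrome bc1 complex (complex III, Uqcr and Cyc1), cytochrome c oxidase (complex IV, Cox4 to Cox8) and ATP synthase (complex V, Atp5). All genes whose symbols carry these prefixes were taken from the 2 deposited expression tables, with pseudogenes dropped, which gave 53 of 33235 genes. The list holds 48 subunits, 4 assembly factors of complex II that share the Sdh prefix, and 1 inhibitor of ATP synthase, Atp5if1. The tables come from a study of mouse liver in which antisense oligonucleotides (ASOs) against Mdm2, the ubiquitin ligase that restrains p53, were coupled to GalNAc, a sugar taken up by the asialoglycoprotein receptor of hepatocytes. Control mice received GalNAc-conASO and carry the genotype label WT. Treated mice received GalNAc-Mdm2ASO and carry the label MDM2 knockdown, which refers to the oligonucleotide and not to an allele. Both treatments were given on the HFHC diet, which the labels name only by this abbreviation, and on CDAHFD, which lacks choline, supplies defined amino acids in place of protein and produces steatohepatitis. RNA came from whole liver, so fewer cells of a type and less RNA per cell cannot be told apart.

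Complex II oxidises succinate in the citric acid cycle and passes the electrons to ubiquinone, complex III moves them to cytochrome c, and complex IV hands them to oxygen. Complexes III and IV pump protons across the inner mitochondrial membrane, and complex V uses the returning protons to make ATP. Complex II is built from nuclear genes alone, whereas complexes III, IV and V join nuclear subunits with subunits encoded in mitochondrial DNA, and hepatocytes rely on the chain for ATP and for the disposal of electrons from fatty acid oxidation.

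On HFHC the columns of Mdm2 ASO replicates 6 and 7 were identical for every gene and stand here as 1 library, called 6-7, which left 4 control and 3 Mdm2 ASO libraries on HFHC and 5 and 5 on CDAHFD. The HFHC libraries held 17.8 to 18.8 M reads counted to genes and the CDAHFD libraries 22.4 to 31.5 M. The labels do not say whether replicates were separate animals, so p-values measure the spread between these samples. The targeted gene Mdm2 stood at 907, 954, 963 and 956 normalized counts in the HFHC controls and at 420.4, 362 and 304 with Mdm2 ASO (log2 fold change -1.39, SE 0.11, limma adjusted p = 1.1e-05). On CDAHFD, Mdm2 stood at 1443 to 1650.0 in controls and at 564 to 861 with Mdm2 ASO (log2 fold change -1.29, SE 0.11, limma adjusted p = 3.07e-05). The groups did not overlap on either diet. The 15 hepatocyte markers were all detected in every group, and on HFHC 0 of them passed the limma test (1 at an unadjusted p under 0.05, 1 with edgeR, 5 with DESeq2), with a median log2 fold change of -0.12. On CDAHFD, 2 of the 15 rose (13.3%), Apoc3 (0.58, limma adjusted p = 0.0196) and Serpina1c (0.63, limma adjusted p = 0.0118), 0 fell and the median was -0.05. Markers of leukocytes moved with the treatment on HFHC, where 13 of 15 rose and their summed level went from 7200 to 11836 in controls to 37347 to 43593 with Mdm2 ASO, while on CDAHFD 0 of 15 passed limma (1 at an unadjusted p under 0.05, 0 with edgeR and 0 with DESeq2). The part of these shifts in the member results was not tested. In the same HFHC libraries 6 of 6 red blood cell markers and 4 of 8 lymphocyte markers rose, and 5 of 7 cholangiocyte markers fell. For scale, 16.8% of all tested genes rose and 13.8% fell on HFHC, and 6.12% rose on CDAHFD.

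Mdm2 ASO was accompanied by lower levels of respiratory complex II to V transcripts on HFHC and by higher levels of a smaller number of them on CDAHFD. A gene is said to rise or fall where the adjusted p of limma, taken over all genes tested, was under 0.05. Of the 51 members with enough signal to test, 25 fell and 1 rose on HFHC, against a background of 13.8% of all 17441 tested genes that fell and 16.8% that rose. The share of members that fell was 49%, and 46 of the 51 fold changes were negative. Their median log2 fold change was -0.34, beside -0.006 over all tested genes. Most members are abundant, and over 2655 other genes with a mean of at least 1000 normalized counts on both diets the median was -0.13. Of the 2309 of these with coding sequences over 600 nucleotides, 651 fell and 247 rose, a larger share of decreases than over all tested genes. On CDAHFD, 10 of 51 members rose (19.6%) and 1 fell (1.96%), with a background of 6.12% of 16803 genes that rose and 6.86% that fell. There the median over members was 0.18, beside -0.002 over all genes and -0.05 over the 2655 abundant other genes, and 37 of 51 fold changes were positive. The count of 10 depended on single libraries, since it was 2 without control replicate 2, 4 without control replicate 4 or 5, 5 without Mdm2 ASO replicate 6 and 4 without Mdm2 ASO replicate 7 or 8. It was also 2 when libraries were centred on the hepatocyte list. On HFHC the count of 25 ranged from 17 to 34 as each library was left out in turn, and was 17 with hepatocyte list centring.

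Of the members tested on both diets, 7 fell on HFHC and rose on CDAHFD, 1 fell on both, 3 rose on CDAHFD without passing on HFHC, and 22 passed on neither. On HFHC, 24 of the 51 members had all treated libraries below all controls (47.1%, beside 18% of all tested genes), and 2, Cox6a2 and Cox7a2l, had all of them above (3.92%, beside 20.7%). On CDAHFD, 7 members had all treated libraries above all controls (13.7%, beside 4.95% of all tested genes) and 0 had all of them below (5.62% of all tested genes).

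**Figure D1:**
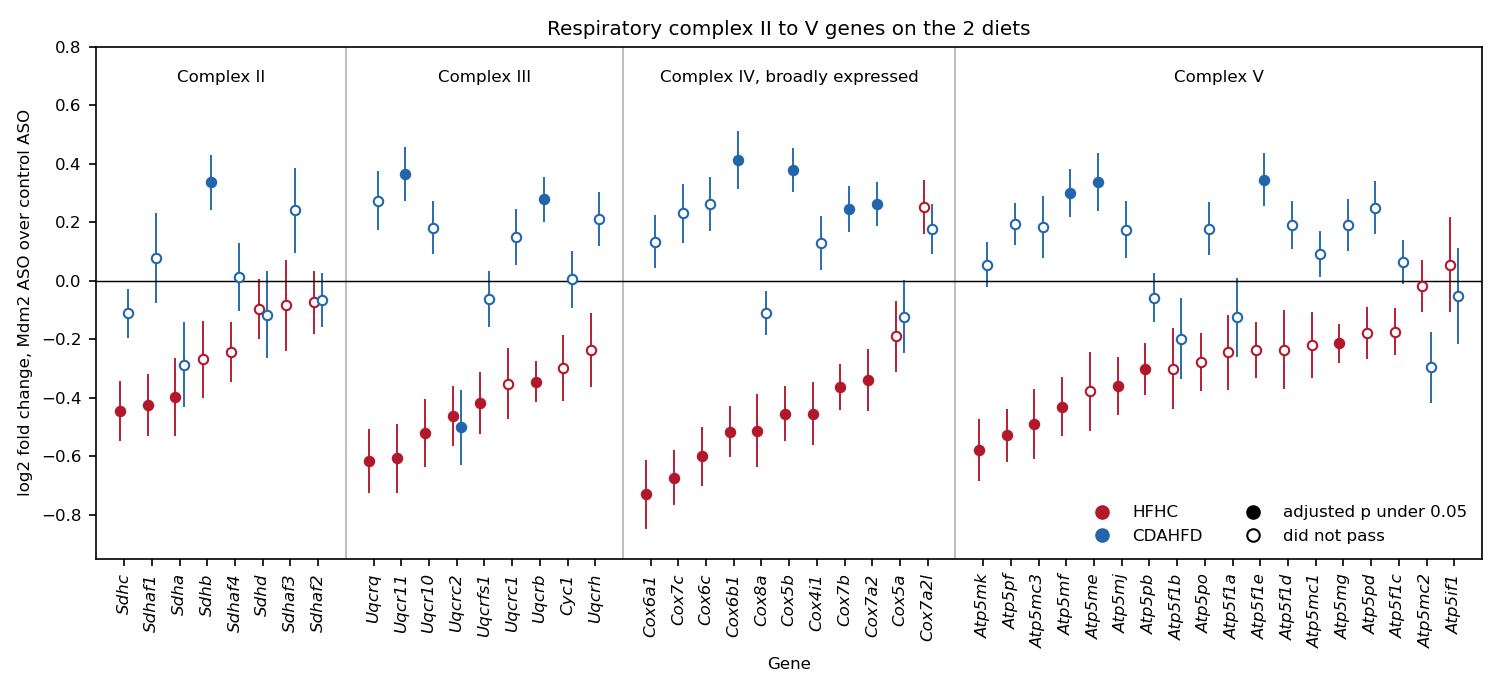
Log2 fold change of Mdm2 ASO over control ASO (vertical axis, ± SE) for the broadly expressed members of each complex (horizontal axis, ordered by the HFHC value) on HFHC (red) and CDAHFD (blue). Filled points passed the limma test, and most red points lie below 0 while most blue points lie above it, with Uqcrc2 filled and below 0 on both diets.

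The libraries were compared one by one through the 46 members with a mean of at least 50 normalized counts, as the mean log2 deviation from the control mean of each gene, written here as a percentage of control. The HFHC controls stood at 95.1%, 104%, 105% and 95.8%. Mdm2 ASO libraries 6-7, 9 and 10 stood at 70.8%, 79.1% and 88.4%. All 3 treated libraries were below all 4 controls, and they differed among themselves as well, with 44, 44 and 36 of the 46 members below the control mean. On CDAHFD the controls stood at 109%, 101%, 94.2%, 101% and 95.3%, and the Mdm2 ASO libraries at 111%, 116%, 112%, 98.0% and 102%. Replicates 6, 7 and 8 exceeded every control and replicates 9 and 10 lay within the control range, so the groups overlapped. Of all reads counted to genes, the 53 members held 0.965% to 1.01% in HFHC controls and 0.739% to 0.888% with Mdm2 ASO. On CDAHFD the shares were 1.07% to 1.10% in controls and 1.05% to 1.27% with Mdm2 ASO.

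**Figure D2:**
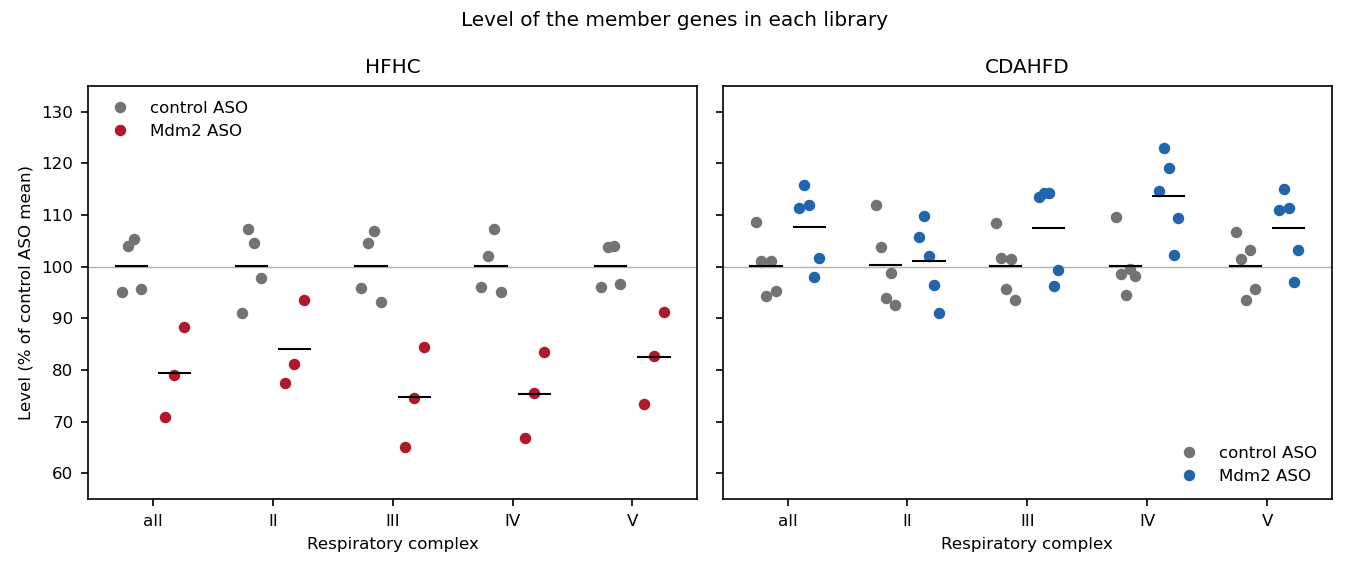
Mean level of the members in each library as a percentage of the control ASO mean (vertical axis), for all members together and for each complex (horizontal axis), on HFHC (left) and CDAHFD (right). Each point is 1 library and each bar a group mean, and the red points lie below the grey ones for every complex except II, where library 10 at 93.6% lies within the control range.

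Promoters of nuclear respiratory genes are known for binding sites of NRF1, GABPA, YY1 and ERR. RefSeq promoters on GRCm38.p6, from 250 bases before to 50 bases after the start, were matched for 41 of the 53 members. The NRF1 core GCGCANGCG, searched on both strands, was present in 15 of 41 members (36.6%) and in 7.03% of 27025 genes. The ETS core CCGGAAGT bound by GABPA was present in 4 members (9.76%, all genes 4.31%), the YY1 core AAGATGGCG in 2 (4.88%, all genes 1.64%), the ERR site TCAAGGTCA in 2 (4.88%, all genes 0.466%) and the SP1 box GGGCGG in 19 (46.3%, all genes 38.2%). The 100 bases before the start of 4 members are printed on the strand of the gene with the matches in capitals, because these genes differ in how they moved. Sdha, at chr13:74350241-74350340 on the minus strand, carries 3 NRF1 cores. Atp5me, at chr5:108434400-108434499 on the minus strand, carries overlapping NRF1 cores on both strands. Uqcr11, at chr10:80406822-80406921 on the minus strand, carries the ETS core, and its promoter also holds an NRF1 core outside the printed bases. Atp5pf, at chr16:84834977-84835076 on the minus strand, carries the YY1 core, while another listed promoter of this gene carries none.
Sdha: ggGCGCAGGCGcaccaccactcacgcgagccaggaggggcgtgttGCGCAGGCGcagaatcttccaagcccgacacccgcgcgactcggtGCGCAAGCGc
Atp5me: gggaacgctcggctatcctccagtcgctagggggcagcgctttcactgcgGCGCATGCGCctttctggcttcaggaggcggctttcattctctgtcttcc
Uqcr11: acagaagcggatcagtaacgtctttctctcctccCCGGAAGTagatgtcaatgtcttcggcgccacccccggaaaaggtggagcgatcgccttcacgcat
Atp5pf: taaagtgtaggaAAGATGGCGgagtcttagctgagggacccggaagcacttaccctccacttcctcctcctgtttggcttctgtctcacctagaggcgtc
These matches are descriptions of letters and not of bound sites. The members with an NRF1 core and those without it among the abundant ones had median log2 fold changes of -0.24 (15 genes) and -0.35 (22 genes) on HFHC and of 0.15 and 0.19 on CDAHFD.

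In complex II, 2 of the 4 subunits and 1 of the 4 assembly factors fell on HFHC, and 1 subunit rose on CDAHFD. Sdhc, a membrane anchor subunit, was at 3746, 4736, 4377 and 4268 normalized counts in HFHC controls and at 2785, 3189 and 3467 with Mdm2 ASO. Every treated library was below every control, and the gene fell (log2 fold change -0.45, SE 0.10, limma adjusted p = 0.0106). Sdhaf1, which helps insert iron-sulfur clusters into Sdhb, was at 364, 363, 402 and 378 in controls and at 274, 248 and 323 with Mdm2 ASO, again without overlap (log2 fold change -0.43, SE 0.11, adjusted p = 0.0139). An antisense gene covers 69.6% of its exonic bases, and Sdhaf1 did not pass without Mdm2 ASO replicate 9, with hepatocyte centring or in a fit of all 4 groups together. Sdha, the flavoprotein that oxidises succinate, fell by 0.40 on the log2 scale with an adjusted p of 0.0495, close to the threshold, and its groups overlapped. It missed the threshold in 11 of 20 alternatives, edgeR among them.

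Sdhb, the iron-sulfur subunit, was the complex II member that rose on CDAHFD. Controls held 4880.0, 4700.0, 4492, 4858 and 3894 normalized counts and Mdm2 ASO libraries 5770.0, 6859, 5686, 5376 and 5180.0. The lowest treated library exceeded the highest control (log2 fold change 0.34, SE 0.09, adjusted p = 0.0291). It missed the threshold in 7 of 22 alternatives, 5 of which left out 1 library. On HFHC the same gene overlapped between groups, at 3411 ± 356 in controls and 2854 ± 542 with Mdm2 ASO (SD, n = 4 and 3, log2 fold change -0.27, limma adjusted p = 0.158). The other 3 subunits had negative values on CDAHFD that did not pass, from -0.29 for Sdha to -0.11 for Sdhc. Sdhd, the second membrane anchor, had -0.10 on HFHC and -0.12 on CDAHFD, and neither value passed. Sdhaf2, Sdhaf3 and Sdhaf4 passed on neither diet.

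Of the 9 complex III subunits, 6 fell on HFHC and all 9 had negative fold changes. Uqcrq, a small accessory subunit, was at 6566, 6942, 7023 and 6510.0 normalized counts in controls and at 3670.0, 4678 and 4999 with Mdm2 ASO. The groups were far apart relative to their spread (log2 fold change -0.61, SE 0.11, adjusted p = 0.00258). Uqcr11, among the smallest subunits, was at 3304, 3687, 3616 and 3220.0 in controls and at 1860.0, 2369 and 2641 with Mdm2 ASO, and fell by a similar amount (log2 fold change -0.61, SE 0.12, adjusted p = 0.00402). Uqcr10 (-0.52), Uqcrc2 (-0.46), the Rieske iron-sulfur protein Uqcrfs1 (-0.42) and Uqcrb (-0.34) also fell. Of the 20 alternatives, the call of Uqcrfs1 was lost without Mdm2 ASO replicate 9 (adjusted p = 0.0621) and that of Uqcrb with hepatocyte centring (adjusted p = 0.11). The core protein Uqcrc1 had -0.35 with an adjusted p of 0.0517, just outside the threshold. Cyc1, which carries the haem that passes electrons to cytochrome c, had -0.30 and Uqcrh, the hinge protein, had -0.24, and neither passed.

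The CDAHFD livers showed both directions within complex III. Uqcr11, whose promoter with the ETS core is printed above, held 5140.0, 4623, 4759, 4536 and 5162 normalized counts in controls and 6233, 7417, 6543, 5469 and 5687 with Mdm2 ASO. All 5 treated libraries were above all controls, and the gene rose (log2 fold change 0.37, SE 0.09, adjusted p = 0.0177). It missed the threshold in 3 of 22 alternatives. Uqcrb rose as well (log2 fold change 0.28, SE 0.08, adjusted p = 0.0284) but missed the threshold in 7 of 22 alternatives. Uqcrc2, the second core protein, went the other way, with 3638, 3886, 2669, 3633 and 2796 in controls and 2913, 2308, 2241, 2388 and 1883 with Mdm2 ASO. It fell (log2 fold change -0.50, SE 0.13, adjusted p = 0.0203) although replicate 6 of the treated group lay within the control range, and it missed the threshold in 3 of 22 alternatives, of which 2 left out control replicate 2 or 4. On HFHC, Uqcrc2 stood at 3934, 4232, 4395 and 4005 in controls and at 2615, 2984 and 3470.0 with Mdm2 ASO (log2 fold change -0.46, SE 0.10, adjusted p = 0.00744). It was the member that fell on both diets, and its difference between diets was -0.04 (SE 0.19, limma adjusted p = 0.915).

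In complex IV, 9 of the 11 broadly expressed subunits fell on HFHC (81.8%), which is 9 of 16 (56.2%) when the tested tissue-restricted subunits are counted too. The share in complex III was 6 of 9 (66.7%). Cox7c, a short subunit of the membrane part, was at 3860.0, 3939, 4002 and 3238 normalized counts in controls and at 2157, 2462 and 2443 with Mdm2 ASO. Its treated libraries lay close together and well under the controls (log2 fold change -0.67, SE 0.10, adjusted p = 0.000639). Cox6a1, the liver form of subunit VIa, was at 6267, 6673, 7269 and 6581 in controls and at 3303, 4284 and 4635 with Mdm2 ASO. This was the largest decrease among the members that passed, to 60.3% of control (log2 fold change -0.73, SE 0.12, adjusted p = 0.00155). Cox6c (-0.60), Cox6b1 (-0.51), Cox8a (-0.51), Cox5b (-0.46), Cox4i1 (-0.45), Cox7b (-0.36) and Cox7a2 (-0.34) fell too. The call of Cox7a2 was lost in 8 of 20 alternatives and that of Cox7b in 1. Cox5a, a matrix-side subunit, had -0.19 and did not pass. Cox7a2l, which takes part in joining complexes III and IV into supercomplexes, stood apart with higher values, at 1328, 1346, 1407 and 1392 in controls and 1535, 1487 and 1897 with Mdm2 ASO. Its groups did not overlap, but the test was not passed (log2 fold change 0.25, SE 0.09, limma adjusted p = 0.0641).

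On CDAHFD, 4 of the 11 subunits rose and 0 fell with limma (0 at an unadjusted p under 0.05, 0 with edgeR and 0 with DESeq2). Cox5b, a zinc-binding subunit on the matrix side, held 6159, 5688, 6046, 5788 and 5798 normalized counts in controls and 8192, 8215, 7828, 6982 and 7215 with Mdm2 ASO. The 2 sets of values were clearly apart (log2 fold change 0.38, SE 0.08, adjusted p = 0.00572). Cox6b1, which lies at the dimer contact of complex IV, held 6225, 5469, 5126, 5429 and 6187 in controls and 7330.0, 8536, 8428, 6264 and 7440.0 with Mdm2 ASO. Replicate 9 of the treated group came close to the highest controls without reaching them (log2 fold change 0.41, SE 0.10, adjusted p = 0.0141). These genes passed under every alternative tried on CDAHFD, which no other member that rose there did. Both had fallen on HFHC, Cox5b from 3548 ± 260 to 2593 ± 264 (SD, n = 4 and 3, limma adjusted p = 0.00553) and Cox6b1 from 4935 ± 408 to 3447 ± 176 (SD, n = 4 and 3, limma adjusted p = 0.00185). Cox7a2 (0.26) and Cox7b (0.25) rose with adjusted p of 0.0355 and 0.0485. Their calls were lost in 10 and 14 of 22 alternatives, for Cox7b also with edgeR. Cox6a1 and Cox7c, the subunits with the largest decreases on HFHC, had 0.13 and 0.23 on CDAHFD and did not pass.

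**Figure D3:**
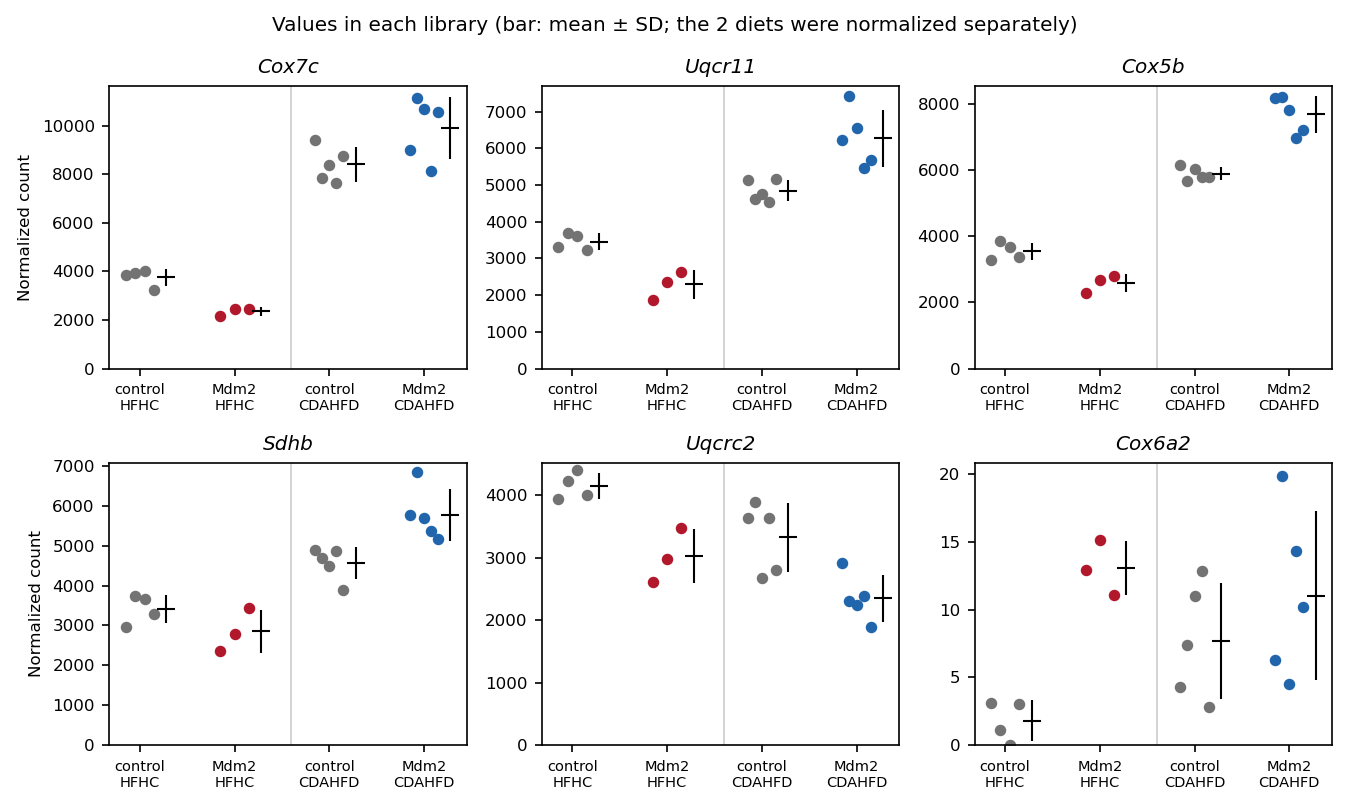
Normalized counts (vertical axis, from 0) of 6 members in each library of the 4 groups (horizontal axis), with mean ± SD beside the points. The scales of the 2 diets were set separately and are not comparable across the grey line, and within a diet Cox7c, Uqcr11 and Cox5b lie lower with Mdm2 ASO on HFHC, Uqcr11, Cox5b and Sdhb lie higher on CDAHFD, Uqcrc2 is lower on both, and Cox6a2 is near 0 in HFHC controls.

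The 7 tissue-restricted complex IV subunits were low or silent in these livers. Cox7b2 and Cox8c, known from testis, were at 0 in every library and were not tested. Cox4i2, the lung form of subunit IV, was at 1.08 to 6.19 normalized counts in HFHC controls and 4.04 to 8.34 with Mdm2 ASO. Cox8b, a muscle and heart form, was at 1.12 to 4.13 and 0 to 1.85. Cox6b2, the testis form of subunit VIb, was at 4.49 to 23.7 in controls and at 88.9, 15.1 and 20.2 with Mdm2 ASO, so the high mean rested on library 6-7. Cox7a1, the heart and muscle form of subunit VIIa, was at 31.4 to 41.0 and 22.7 to 42.6. All 4 overlapped between groups on both diets and did not pass on either.

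Cox6a2, the heart and muscle form of subunit VIa, was the member that rose on HFHC. It was at 3.10, 1.12, 0 and 3.00 normalized counts in controls and at 13.0, 15.1 and 11.1 with Mdm2 ASO. The groups did not overlap (log2 fold change 2.91, SE 0.69, adjusted p = 0.0114), and without Mdm2 ASO replicate 9 the adjusted p was 0.0504. With controls this near 0 the fold change depends on the pseudocount, and it ranged from 1.43 to 3.25 over the alternatives. The sequenced RNA also held a large change in Itgad, a leukocyte integrin gene whose exons cover 10.3% of the exonic bases of Cox6a2 on the opposite strand. Itgad was at 6.60 ± 8.35 normalized counts in HFHC controls and 1091 ± 50.4 with Mdm2 ASO (SD, n = 4 and 3, log2 fold change 7.94, limma adjusted p = 2.55e-05). The counting is not stated to use strand, so reads of the 2 genes may not be told apart, and the part of Itgad in the Cox6a2 value was not tested. Of 12 skeletal and heart muscle markers, 6 could be tested and 0 rose with limma (0 at an unadjusted p under 0.05, 0 with edgeR and 0 with DESeq2), their summed level was 9.99 to 79.7 in controls and 15.7 to 18.9 with Mdm2 ASO, and Myh2, Myh4, Myh6 and Myh7 were at 0 in every HFHC library. On CDAHFD, Cox6a2 overlapped between groups, at 2.80 to 12.9 and 4.54 to 19.9, and did not pass (log2 fold change 0.50, limma adjusted p = 0.566).

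In complex V, members of the stalk and membrane part fell on HFHC. Of the 5 F1 subunits, 0 fell with limma (1 at an unadjusted p under 0.05, 0 with edgeR and 0 with DESeq2), and their fold changes were all negative, between -0.30 and -0.17. Of the 12 subunits of the stalk, membrane part and c-ring, 7 fell. Whether the 2 parts differ was not tested. Atp5pf, coupling factor 6 of the stalk, was at 4191, 4635, 4636 and 3961 normalized counts in controls and at 2751, 3209 and 3100.0 with Mdm2 ASO. Every treated library was under every control (log2 fold change -0.53, SE 0.09, adjusted p = 0.00197). Atp5mk, a small membrane subunit, was at 1900.0, 1832, 1714 and 1586 in controls and at 1011, 1343 and 1191 with Mdm2 ASO (log2 fold change -0.58, SE 0.11, adjusted p = 0.00297). It was the largest decrease in complex V. Atp5mc3 (-0.49), Atp5mf (-0.43), Atp5mj (-0.36), Atp5pb (-0.30) and Atp5mg (-0.21) fell as well. The calls of Atp5mj, Atp5pb and Atp5mg were lost in 6, 7 and 9 of 20 alternatives, and that of Atp5mc3 without Mdm2 ASO replicate 9 (adjusted p = 0.0597). Atp5mc1, Atp5mc2 and Atp5mc3 encode the same mature c-ring protein with different targeting sequences, and the other 2 had -0.22 and -0.02 and did not pass. The inhibitor Atp5if1, which binds F1 when the proton gradient collapses, had 0.06 on HFHC and -0.05 on CDAHFD, with adjusted p of 0.826 and 0.874.

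In complex V, 3 members rose on CDAHFD. Atp5f1e, the epsilon subunit of F1, held 5714, 5226, 5761, 5315 and 5284 normalized counts in controls and 7027, 8480.0, 6559, 6184 and 6633 with Mdm2 ASO. All treated libraries were above all controls, replicate 7 the most (log2 fold change 0.35, SE 0.09, adjusted p = 0.0215). Atp5mf, a membrane subunit, held 5437, 4905, 5337, 5280.0 and 5118 in controls and 6320.0, 7517, 6453, 5633 and 6320.0 with Mdm2 ASO, also without overlap (log2 fold change 0.30, SE 0.08, adjusted p = 0.0288). Atp5me, the membrane subunit whose promoter carries the NRF1 cores, rose by 0.34 on the log2 scale (SE 0.10, limma adjusted p = 0.0386), with 1 treated library inside the control range. Atp5mf and Atp5me each missed the threshold in 9 of 22 alternatives and Atp5f1e in 4. The catalytic pair Atp5f1a and Atp5f1b had -0.12 and -0.20 on CDAHFD and did not pass.

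The difference between diets, tested as the fold change on CDAHFD minus that on HFHC over all 4 groups, passed for 26 of the 51 members, and in each of the 26 the CDAHFD value was the higher one. The background was 9.83% of 16333 genes with a higher CDAHFD value, and the median difference was 0.43 over the members and 0.006 over all genes. Over the 2655 abundant other genes the median difference was 0.09. Of the 2309 of them with over 600 coding nucleotides, 347 passed with a higher CDAHFD value. The count of 26 members stayed between 21 and 32 in all alternatives run. The members that differed were 1 of 4 subunits of complex II, 6 of 9 of complex III, 9 of 11 broadly expressed subunits of complex IV and 10 of 18 members of complex V. Among the members that passed, the largest difference was that of Uqcr11 (0.97, SE 0.15, limma adjusted p = 0.000114), followed by Cox6b1 (0.93, SE 0.14, adjusted p = 8.22e-05) and Cox7c (0.90, SE 0.15, adjusted p = 0.000204). The smallest p belonged to Cox5b (0.83, SE 0.11, adjusted p = 3.27e-05). Of the 26, 19 had fallen on HFHC and 10 had risen on CDAHFD, and 4 had passed on neither diet, namely Uqcrc1 (0.50), Uqcrh (0.45), Atp5pd (0.43) and Atp5po (0.46). Uqcrh and Cox8a (0.40) were near the threshold, with adjusted p of 0.0467 and 0.0402. They did not pass in 16 and 14 of 28 alternatives. Uqcrc1 and Atp5po did not pass in 4 each and Atp5pd in 5. Among members that did not pass, the low-count Cox6a2 (-2.41, limma adjusted p = 0.0539), Cox6b2 (-1.48, limma adjusted p = 0.148) and Cox7a1 (1.06, limma adjusted p = 0.051) had differences of larger size. Members with little difference included Sdhd (-0.02), Sdhaf2 (0.01), Uqcrc2 (-0.04), Cox5a (0.07), Cox7a2l (-0.08), Atp5f1b (0.10), Sdha (0.11) and Atp5f1a (0.12), of which the SE lay between 0.13 and 0.22. The tables of the 2 diets were normalized separately, so the levels of the members were not compared across diets. Read depth also differed by diet, and the counting settings of the 2 diets are not known to be the same. A difference between diets therefore cannot be told apart from one of sequencing or counting that went with the diet.

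Fold changes varied with coding length, a feature that the choice of members did not use. Among the 46 members at a mean of at least 50 normalized counts, 15 have coding sequences of up to 300 nucleotides, and their median log2 fold change was -0.51 on HFHC and 0.26 on CDAHFD. All 15 passed the test of the difference between diets, with a median of 0.70. Of 20 members with over 300 and up to 600 nucleotides, 8 passed it (median 0.37), and of 11 members over 600 nucleotides, 3 passed it (median 0.24). The median fold changes of these longer classes were -0.23 and -0.30 on HFHC, so the decrease there did not shrink steadily with length. On CDAHFD they were 0.13 and -0.06. Across the 46 genes, Spearman's rho between coding length and log2 fold change was 0.36 on HFHC, -0.56 on CDAHFD and -0.60 for the difference. Across 2655 other genes with a mean of at least 1000 normalized counts, the same rho was 0.07, 0.01 and -0.06. Genes are not independent replicates, and all of them share the same libraries. Of those other genes, 44 have up to 300 nucleotides, of which 14 passed the test of the difference with a higher CDAHFD value and 2 with a lower one (median 0.23). On HFHC 19 of the 44 fell and 3 rose, beside 12 of 15 members of that length that fell. On CDAHFD 6 of the 44 rose and 3 fell, beside 7 of 15 members that rose. Removing the trend with coding length and GC content over all genes, an alternative chosen after the data were seen, left 3 members that rose on CDAHFD, and the median on HFHC became -0.47.

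**Figure D4:**
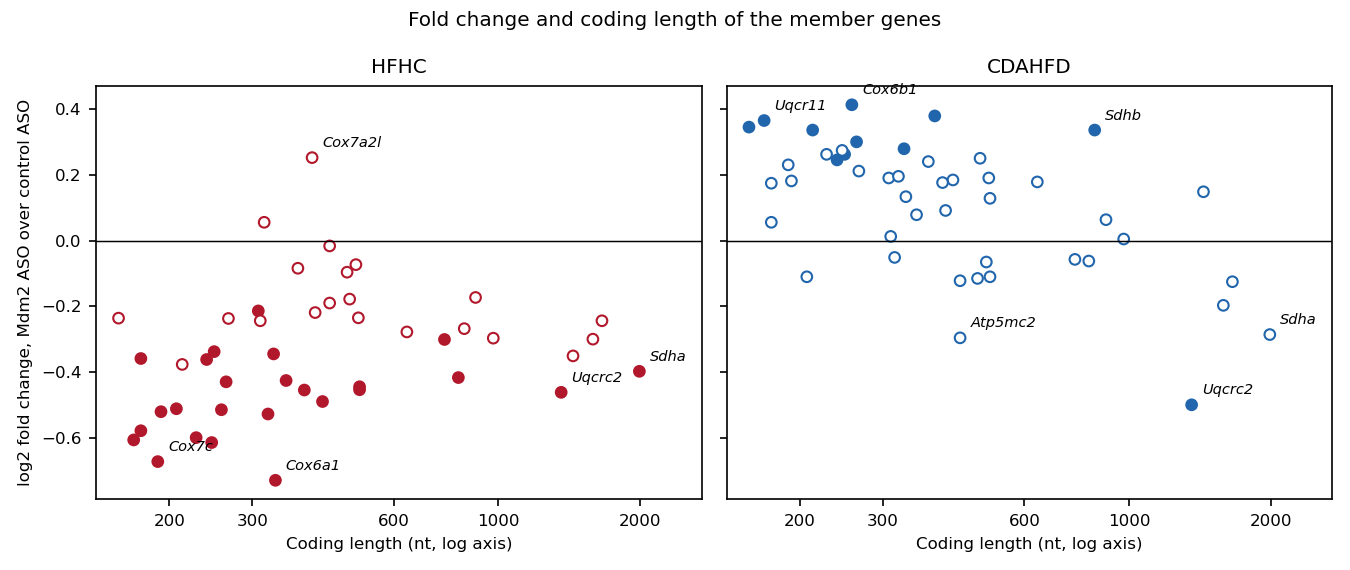
Log2 fold change of Mdm2 ASO over control ASO (vertical axis) against coding length in nucleotides (horizontal log axis) for 46 members on HFHC (left) and CDAHFD (right). Filled points passed the limma test, and the 15 genes of up to 300 nucleotides have medians of -0.51 on HFHC and 0.26 on CDAHFD but scatter widely, with Atp5f1e at -0.24 on HFHC and Cox8a at -0.11 on CDAHFD, while Uqcrc2 and Sdha, among the longest, lie below 0 in both.

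Several members share sequence with other genes or pseudogenes, which could split their reads. In the mouse transcripts of GENCODE M21, 28 members shared no stretch of 50 bases with another gene, 17 shared under 15% of such stretches and 8 shared at least 15%, with Atp5mg (68.5%), Atp5pd (47.9%) and Uqcrb (43.2%) the highest. The median log2 fold change of the tested members in the 8 was -0.29 on HFHC and 0.21 on CDAHFD, and in the 21 abundant members with no shared stretch it was -0.36 and 0.15. Exons of another gene overlapped at least 10% of the exonic bases of 8 members on the opposite strand, among them Uqcrc2 (19.7%, Pdzd9) and Atp5pf (12.7%, Gabpa). On the same strand this held for 1 member, Atp5po (12.3%, beside 35.6% on the opposite strand), which is among the members that differed between diets. The part of these overlaps in the values was not tested. Pdzd9 and Gabpa did not pass on HFHC (log2 fold change -1.07, limma adjusted p = 0.164 and log2 fold change -0.10, limma adjusted p = 0.322).

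The genes that build and accompany the complexes were counted in the same way. Of all tested genes, 13.8% fell and 16.8% rose on HFHC, and 6.86% fell and 6.12% rose on CDAHFD. Of 10 assembly factors and partners of complex III, 5 fell on HFHC and 3 rose on CDAHFD. Cycs, cytochrome c itself, fell from 1606 ± 154 to 999 ± 13.9 normalized counts on HFHC (SD, n = 4 and 3, log2 fold change -0.68, limma adjusted p = 0.000325) and had -0.04 on CDAHFD (adjusted p = 0.834). Uqcc2, an assembly factor of cytochrome b, fell by 0.31 on HFHC (adjusted p = 0.019) and rose by 0.37 on CDAHFD (adjusted p = 0.0216). Of 26 tested assembly factors and partners of complex IV, 12 fell on HFHC, with Cox19, a copper-related factor, from 1508 ± 122 to 718 ± 47.6 (SD, n = 4 and 3, log2 fold change -1.07, limma adjusted p = 1.6e-05). On CDAHFD, 1 of 25 tested rose and 1 fell (4% each), shares below those of all tested genes. The copper chaperone Cox17 rose (0.39, limma adjusted p = 0.0151) and Cox15, which makes haem A, fell (-0.42, limma adjusted p = 0.0112). Among 8 partners of complex V, 1 fell and 1 rose on HFHC (12.5% each), and 1 rose on CDAHFD (12.5%). The HFHC shares lay below those of all tested genes. Fmc1 fell on HFHC (-0.54, limma adjusted p = 0.0121), and Slc25a4, an ADP/ATP carrier, rose there (1.03, limma adjusted p = 0.00119). Slc25a3, the phosphate carrier, rose on CDAHFD (0.28, limma adjusted p = 0.0448).

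Of 7 core subunits of complex I, 4 fell on HFHC and 2 rose on CDAHFD. Of 13 transcripts encoded in mitochondrial DNA, 10 fell on HFHC with a median log2 fold change of -0.94. On CDAHFD 1 of the 13 rose (7.69%, beside 6.12% of all tested genes), namely mt-Nd3 (1.16, limma adjusted p = 0.00369). Levels of the 13 transcripts were very uneven, for a reason that was not tested. Their HFHC control means ran from 21.55 normalized counts for mt-Nd4l to 518491 for mt-Co1. The low mt-Nd3 was at 170 to 352 in CDAHFD controls and at 319 to 687 with Mdm2 ASO, so its groups overlapped. Of 14 citric acid cycle genes, 6 fell on HFHC, and on CDAHFD 4 fell and 1 rose. Citrate synthase, Cs, fell on both diets, by 0.66 (limma adjusted p = 0.000171) and by 0.41 (limma adjusted p = 0.00742). Of 13 genes of the mitochondrial outer membrane and matrix, 5 fell on HFHC and 1 on CDAHFD (7.69%, beside 6.86% of all tested genes). The 1 on CDAHFD was Timm23, of the import channel (-0.45, limma adjusted p = 0.0253). Among 16 regulators of respiratory chain genes, 3 fell on HFHC (18.8%), a share near the 13.8% of all tested genes. The list had 8 negative and 8 positive fold changes there, with a median of 0.004. Those that fell were Mtor (-0.35, limma adjusted p = 0.00466), the mitochondrial RNA polymerase Polrmt (-0.31, limma adjusted p = 0.0168) and the mitochondrial transcription factor Tfam (-0.30, limma adjusted p = 0.024). On CDAHFD, 2 of the 16 rose (12.5%) and 1 fell (6.25%), beside 6.12% and 6.86% of all tested genes. There 10 fold changes were negative and 6 positive, with a median of -0.12. Esrra, the receptor ERR alpha, rose (0.50, limma adjusted p = 0.00186), Myc rose (0.98, limma adjusted p = 0.0376) and Hif1a fell (-0.47, limma adjusted p = 0.00177). Ppargc1a and Nrf1 did not pass on either diet.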

How the data were processed

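Liver mRNA was sequenced and, per the submitters' processing notes, aligned to GRCm39 with STAR 2.7.10b and counted with featureCounts of Subread 2.0.3. What the authors deposited is a signal, namely gene counts scaled by 1 factor per sample (TMM-normalized per the labels), in 1 table per diet. Each value was a whole number of reads times 1 constant within a library (100% of values within 0.001), so reads could be recovered for the alternatives. Members were found by symbol, and 18 samples counted as 17 libraries after the identical columns were merged. A gene was tested where the number of libraries at 1 or more reached the size of the smaller group. The test was limma-trend 3.58.1 in R 4.3.3 on log2(value + 0.5), with Benjamini-Hochberg adjustment over all genes and a threshold of 0.05. Fold changes are on that scale, which understates low genes. Alternatives used edgeR 4.0.16 and DESeq2 1.42.0 on recovered reads, other scalings, filters and pseudocounts, and left out each library.

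Values in every library are given for Mdm2 and, per complex and diet, for the 2 called members of smallest p and the one of largest change, for called members against the direction of their complex, and for tissue-restricted subunits, while differences between diets may name every called member. From other lists, named genes come from the up to 4 called members of smallest p per diet. Not all of these are named, and the choice among them followed no rule. Atp5me, Cox7a2l, Itgad, Gabpa, Pdzd9, Sco2, Ppargc1a, Nrf1 and values of named genes on the other diet were chosen after their values were seen. The members and lists were chosen with earlier results of these data known. Adipose tissue, sperm, stellate and sinusoidal endothelial lists were also counted. Sequence overlap, coding length and exon overlap were taken from GENCODE M21 (GRCm38) through Ensembl identifiers, which matched for 32090 genes (96.6%), and no coordinates on the authors' build are given. The models were tested on simulated counts with known changes. Analyses also used Python 3.11.15.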

Additional observations from a re-analysis of the deposited data

Results flagged for a closer look

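In 60 groups of 4 or 5 libraries examined for the members named by library and Mdm2, 4 held 1 library far from the others by Dixon's criterion, where chance flags about 1 in 20 groups. Cox6a1 was at 17308 in Mdm2 ASO replicate 7 on CDAHFD, above 13652 to 14487 in the other libraries of its group. Cox7a1 was at 31.4 in HFHC control replicate 2, below 39.9 to 41.0 in the others. Mdm2 was at 907 in HFHC control replicate 1, below 954 to 963 in the others, and at 861 in Mdm2 ASO replicate 6 on CDAHFD, above 564 to 646 in the others. That replicate was still below every CDAHFD control.

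The fold change on CDAHFD minus that on HFHC passed limma's interaction test in 26 members. In complex II it was 0.61 for Sdhb. In complex III it was 0.97 for Uqcr11, 0.89 for Uqcrq, 0.70 for Uqcr10, 0.63 for Uqcrb, 0.50 for Uqcrc1 and 0.45 for Uqcrh. In complex IV it was 0.93 for Cox6b1, 0.90 for Cox7c, 0.86 for Cox6a1, 0.86 for Cox6c, 0.83 for Cox5b, 0.61 for Cox7b, 0.60 for Cox7a2, 0.58 for Cox4i1 and 0.40 for Cox8a. In complex V it was 0.73 for Atp5mf, 0.72 for Atp5pf, 0.71 for Atp5me, 0.68 for Atp5mc3, 0.64 for Atp5mk, 0.58 for Atp5f1e, 0.53 for Atp5mj, 0.46 for Atp5po, 0.43 for Atp5pd and 0.41 for Atp5mg. Adjusted p ranged from 3.27e-05 for Cox5b to 0.0467 for Uqcrh.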

How the results depend on the processing

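The counts and medians were recomputed with edgeR, DESeq2, other scalings, filters, pseudocounts and variance models, and without each library. Members that fell on HFHC numbered 17 to 34 without 1 library and 17 with hepatocyte list centring. They numbered 20 with library size scaling, where the HFHC median was -0.234. With replicates 6 and 7 as 2 samples they numbered 33, and with the length and GC trend removed 34. Members that rose on HFHC numbered 0 to 1 without 1 library. These numbered 2 with DESeq2, library size scaling, quantile normalization or 1 fit of the 4 groups, and 3 with replicates 6 and 7 as 2 samples. On CDAHFD, members that rose numbered 2 to 12 without 1 library, 6 with library size scaling, 2 with hepatocyte list centring and 3 with the length and GC trend removed, an alternative chosen after seeing the data. Members that fell there numbered 0 to 2 without 1 library, 2 with hepatocyte centring and 0 with that trend removed, where the HFHC median became -0.472. Members that differed between diets numbered 21 to 32 over all alternatives. The cause of these shifts was not tested. For the 63 calls of single members, 1326 of 1490 values under an alternative kept their direction and side of the threshold, 164 kept the direction only, and 0 reversed. Members that had not passed were not tallied this way. No paired analysis was possible because the groups compared share no replicate numbers. Read depth left Cox4i2, Cox6a2 and Cox8b at a few reads per library, where differences were not well measured.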

Other observations

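For some genes that serve the complexes, the values deposited in the tables of the 2 diets lie far apart and are given side by side, with no comparison of expression. Sco2, which delivers copper to complex IV, was at 538 to 640 normalized counts in HFHC controls and at 0 to 0.935 in CDAHFD controls. It fell on HFHC (log2 fold change -0.84, limma adjusted p = 0.000893) and was not tested on CDAHFD. Cox20, another assembly factor of complex IV, was at 449 to 505 in HFHC controls and at 12.8 to 19.3 in CDAHFD controls. The transcript mt-Nd6, the one complex I subunit gene on the light strand of mitochondrial DNA, was at 3817 to 5955 in HFHC controls and at 43400 to 70644 in CDAHFD controls. The tables were normalized separately, and whether they were counted with the same strand and annotation settings is not given in the sources used here. The 48 subunits include no gene that was detected on 1 diet alone.

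Other cell type lists were counted in the same fits. Of all tested genes, 16.8% rose and 13.8% fell on HFHC, and 6.12% rose on CDAHFD. Of 7 sinusoidal endothelial markers, 5 rose on HFHC (71.4%) and 1 rose on CDAHFD (14.3%). Of 7 hepatic stellate markers, 3 rose (42.9%) and 1 fell (14.3%) on HFHC, where 4 of the 7 fold changes were negative and the median was -0.09. Of 4 tested adipose markers 0 passed limma on HFHC, and the 5 sperm and testis markers were at 0 in every library.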
